A study of Mus musculus with 7 samples.

Results

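The genes described here encode the constitutive proteasome of the mouse, its regulatory particles, its activators and its assembly factors, as read in lineage-depleted (lin-) bone marrow cells. They were chosen by name: every gene symbol of the count files that opens with Psma to Psmg and a digit was taken, the 3 immunoproteasome genes *Psmb8*, *Psmb9* and *Psmb10* were left out, and so was any gene with fewer than 10 reads over all mice, which removed 1 gene. Of 50 matching symbols and 25033 symbols in all, 46 remained. All 46 passed the filter on low counts, among 11265 genes tested. The symbols *Psmc3ip*, which encodes a meiotic recombination protein, and *Psme2b*, a copy of *Psme2*, match the pattern without naming a subunit, and are set apart in what follows from the other 44.

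RNA came from 3 wild type (WT) and 4 *HRP-2* knockout (KO, *HRP-2*-/-) mice aged 6 to 8 weeks. The line carries the allele Hdgfrp2<tm1b(KOMP)Wtsi> on the C57BL/6N background and comes from Tcp, the Toronto phenogenomics centre. The knockout is systemic and thus not limited to blood cells, and the KO mice are those that lived to that age in a line in which KO pups died more often. Lin- cells are what is left of red-cell-lysed marrow of the femur and tibia once cells with markers of mature lineages are taken away, and 1 library was made per mouse, each labelled a biological replicate. The libraries prime on the poly(A) tail and give 1 fragment near the 3' end of a transcript, so CPM (the reads on a gene relative to all reads on genes, scaled with edgeR's TMM factors) was not divided by gene length and serves here as a level that can be set side by side between genes.

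The proteasome degrades proteins tagged with ubiquitin and is built as a barrel with caps. The core particle is a stack of alpha and beta rings, with the proteolytic sites inside the beta rings on the products of *Psmb5*, *Psmb6* and *Psmb7*. The regulatory particle on either end has a base of ATPases, which unfold the substrate, and a lid, which takes off the ubiquitin chain. Dividing cells depend on it, and in blood cells interferon exchanges the constitutive catalytic subunits for those of the immunoproteasome.

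The libraries held between 3525665 and 5605158 reads on genes, so that the floor of 3 reads came to 0.535 CPM in the deepest and 0.851 CPM in the shallowest before the TMM factors, for counting error only. The ribosomal RNA precursor *Rn45s* took from 4.94% (KO replicate 1) to 20.6% (WT replicate 2) of the reads on genes. The targeted gene, listed as *Hdgfl2*, had 228, 156 and 168 reads in WT replicates 1 to 3 and 13, 3, 8 and 2 in KO replicates 1 to 4 (log2 fold change -5.09, SE 0.34, adjusted p = 1.38e-07, edgeR). In summed CPM, 10 macrophage markers stood between 358 and 418 in WT and between 263 and 297 in KO mice, 8 eosinophil, basophil and mast cell markers between 2598 and 2755 and between 1813 and 2419, 10 late neutrophil markers between 7996 and 11135 and between 9077 and 25210, and 14 progenitor markers between 9689 and 12006 and between 8672 and 11476. The summed proliferation markers (11 genes) lay between 3126 and 3341 in WT and between 3204 and 3361 in KO cells. The 12 erythroid markers summed to between 367 and 688 CPM in WT and between 352 and 612 in KO mice, with 4 globin genes listed at 0 in all mice, the 11 lymphoid markers to between 625 and 717 and between 485 and 721 CPM, and the 4 platelet markers to between 216 and 351 and between 99.9 and 858 CPM. In bulk RNA, fewer cells of a type and less RNA per cell cannot be told apart.

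Proteasome transcripts were plentiful and nearly equal in amount between genotypes. The 46 genes together reached 6835, 7051 and 6515 CPM in WT replicates 1 to 3 and 6719, 7110.0, 7241 and 7234 CPM in KO replicates 1 to 4. The lowest mouse was a WT and the highest a KO, and the genotypes overlapped. The means were 6800 ± 270 (SD, n = 3) and 7076 ± 246 CPM (SD, n = 4), a ratio of 1.04 (KO over WT). As a share of the reads on genes, before scaling, the set took between 0.645% and 0.741% of a library. The median gene of the set had a mean level of 103 CPM, against 28.2 CPM over all genes tested, and the median coefficient of variation between mice of a genotype was 12.9%, against 20.3%.

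**Figure D1:**
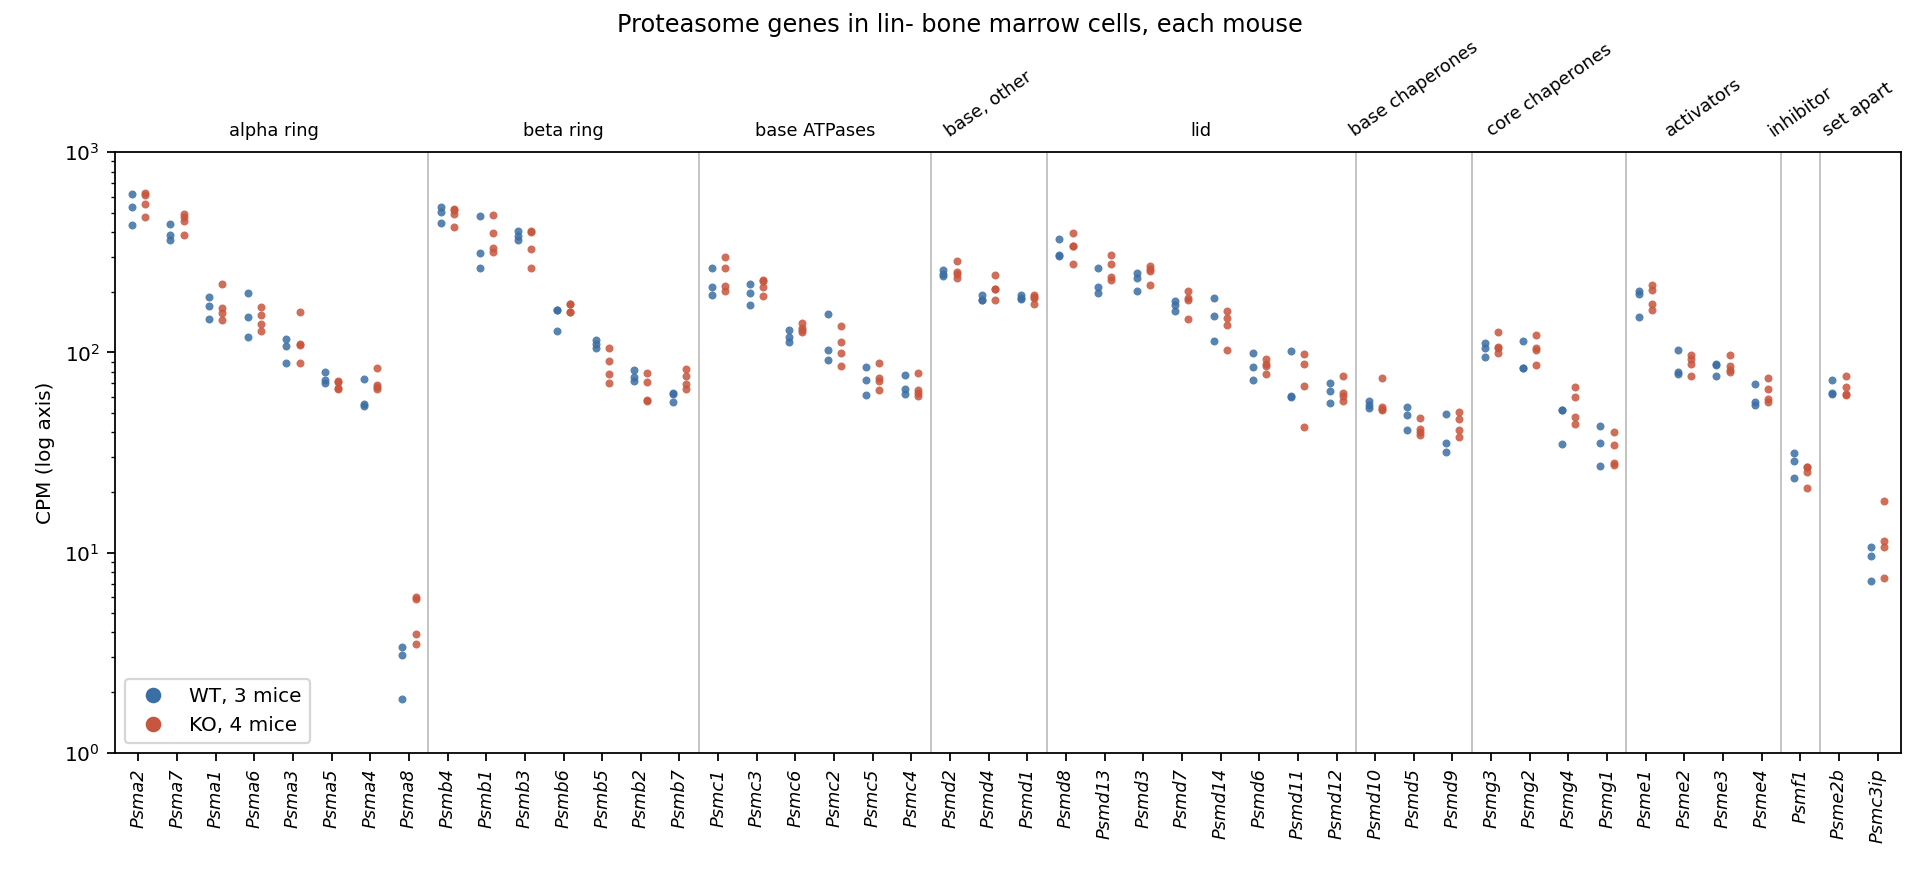
CPM on a log axis of each of the 46 genes, grouped by structural class and ordered by mean level within a class, with 1 point per mouse (WT blue, 3 mice; KO red, 4 mice). Levels run from a few CPM for Psma8 to over 400 CPM for Psma2 in every mouse, and for all but Psmb7 and Psma8 the points of the genotypes overlap.

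Genes of the same particle differed in transcript level, where the places of *Psmb5*, *Psmb6* and *Psmb7* can also be taken by immunoproteasome subunits. Over the 14 core genes other than *Psma8*, the highest mean level was 8.24 times the lowest, and over the 17 genes of the regulatory particle 5.20 times. Among core genes *Psma2* (alpha ring) stood first at 529 ± 93.2 CPM in WT (SD, n = 3) and 565 ± 69.5 in KO cells (SD, n = 4), and *Psmb4* (beta ring) next at 492 ± 44.2 and 488 ± 43.8 CPM. *Psma4* and *Psmb7* had the lowest mean levels, at 66.7 and 67.8 CPM over all mice, and did not differ beyond their spread. Most core genes kept to 1 part of the range, though not to 1 rank: 11 of the 14 core genes stayed on 1 side of the core's median in all 7 mice, with 2 different genes at the top and 4 at the bottom. Reads of near-identical copies limit such comparisons, since 12 of the 46 genes share stretches of 75 bases, the length of a read, with another gene in the last 500 bases of their transcripts. The share of such stretches reached 57.0% for *Psme2* and 45.1% for *Psme2b*, which share them with each other, 54.2% for *Psmd1*, 43.6% for *Psmb5*, 40.6% for *Psma5* and 38.5% for *Psmb3*.

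By class, the alpha ring (8 genes) summed to 1492 ± 77.6 CPM in WT and 1597 ± 113 in KO mice, and the beta ring (7 genes) to 1627 ± 142 and 1614 ± 122 CPM. The base ATPases (6 genes) summed to 799 ± 84.5 and 843 ± 86.9 CPM, the other base subunits *Psmd1*, *Psmd2* and *Psmd4* to 623 ± 8.39 and 652 ± 43.2 CPM, and the lid (8 genes) to 1325 ± 41.6 and 1394 ± 76.4 CPM. No class had sums that separated the genotypes. The core particle as a whole stood at 3118 ± 150.0 CPM in WT and 3212 ± 187 in KO cells, and the regulatory particle at 2747 ± 102 and 2889 ± 194 CPM, ratios of 1.03 and 1.05 (SD, n = 3 and n = 4 throughout).

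**Figure D2:**
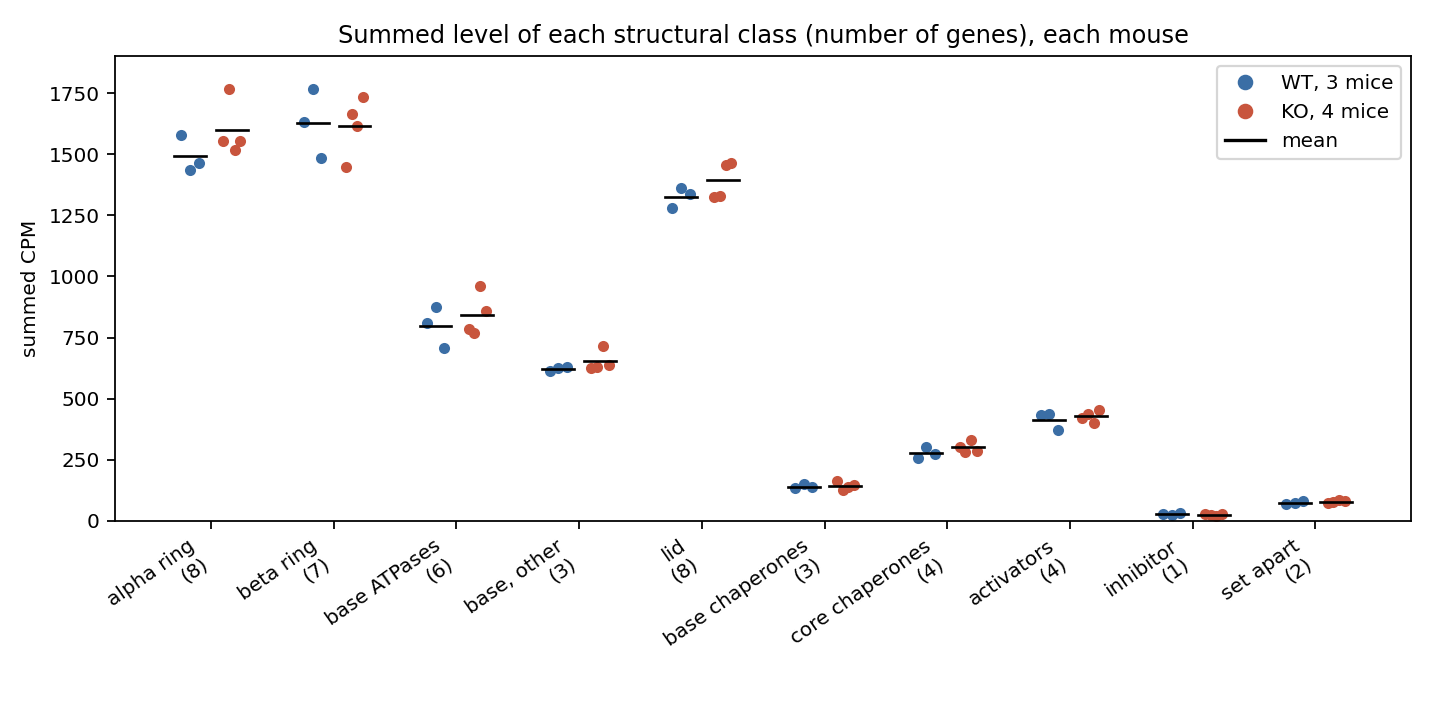
Summed CPM of each structural class in each mouse, with the number of genes in parentheses, points for mice (WT blue, KO red) and a black bar for the mean of the genotype. In all classes the points of WT and KO mice overlap, the alpha ring of KO replicate 2 (1765 CPM) and the other base subunits of KO replicate 3 (717 CPM) standing apart from the other KO mice.

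To see which genes differed with the loss of HRP-2, KO and WT mice were compared with edgeR's quasi-likelihood test with Benjamini-Hochberg adjustment over all genes tested. None of the 46 genes passed an adjusted p-value of 0.25, the threshold of the study, or of 0.05 (smallest adjusted p 0.999, edgeR), and 0.0178% of all genes passed 0.25, which is 2 genes. DESeq2 and limma-voom also called 0. Without adjustment 1 gene, *Psmb5*, had a p-value under 0.05, which is 2.17% of the set against 3.63% of all genes, and DESeq2 and limma-voom each gave 1. The log2 fold change was above 0 for 33 and below 0 for 13 genes, so 71.7% were higher in KO cells against 49.8% of all genes, and its median was 0.05 against -0.0014 over all genes tested. These directions are counts over genes that share their libraries, and carry no test. The changes were small: 41 of the 46 lay within 0.25 of 0, the median absolute log2 fold change was 0.12 against 0.15 over all genes, and the range ran from -0.36 (*Psmb5*) to 0.80 (*Psma8*). CPM values did not overlap between genotypes for 2 genes that were higher in KO cells (2.37% of all genes) and for 0 that were lower (2.79% of all genes).

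How large a difference these mice leave room for is given by the 95% interval. For 29 of the 46 genes (63.0%) the whole interval of the log2 fold change lay within 0.5 of 0, against 29.5% of all genes tested, and the median standard error was 0.16 against 0.23. The set is also higher in level than most genes, and the part of that in the narrower intervals was not tested. By class, 5 of 8 alpha ring genes, 3 of 7 beta ring genes, 5 of 6 base ATPases, all 3 of the other base subunits, 5 of 8 lid genes and all 4 activators lay within that bound. For the remaining 17 genes a change beyond 0.5 could not be set aside at this number of mice.

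**Figure D3:**
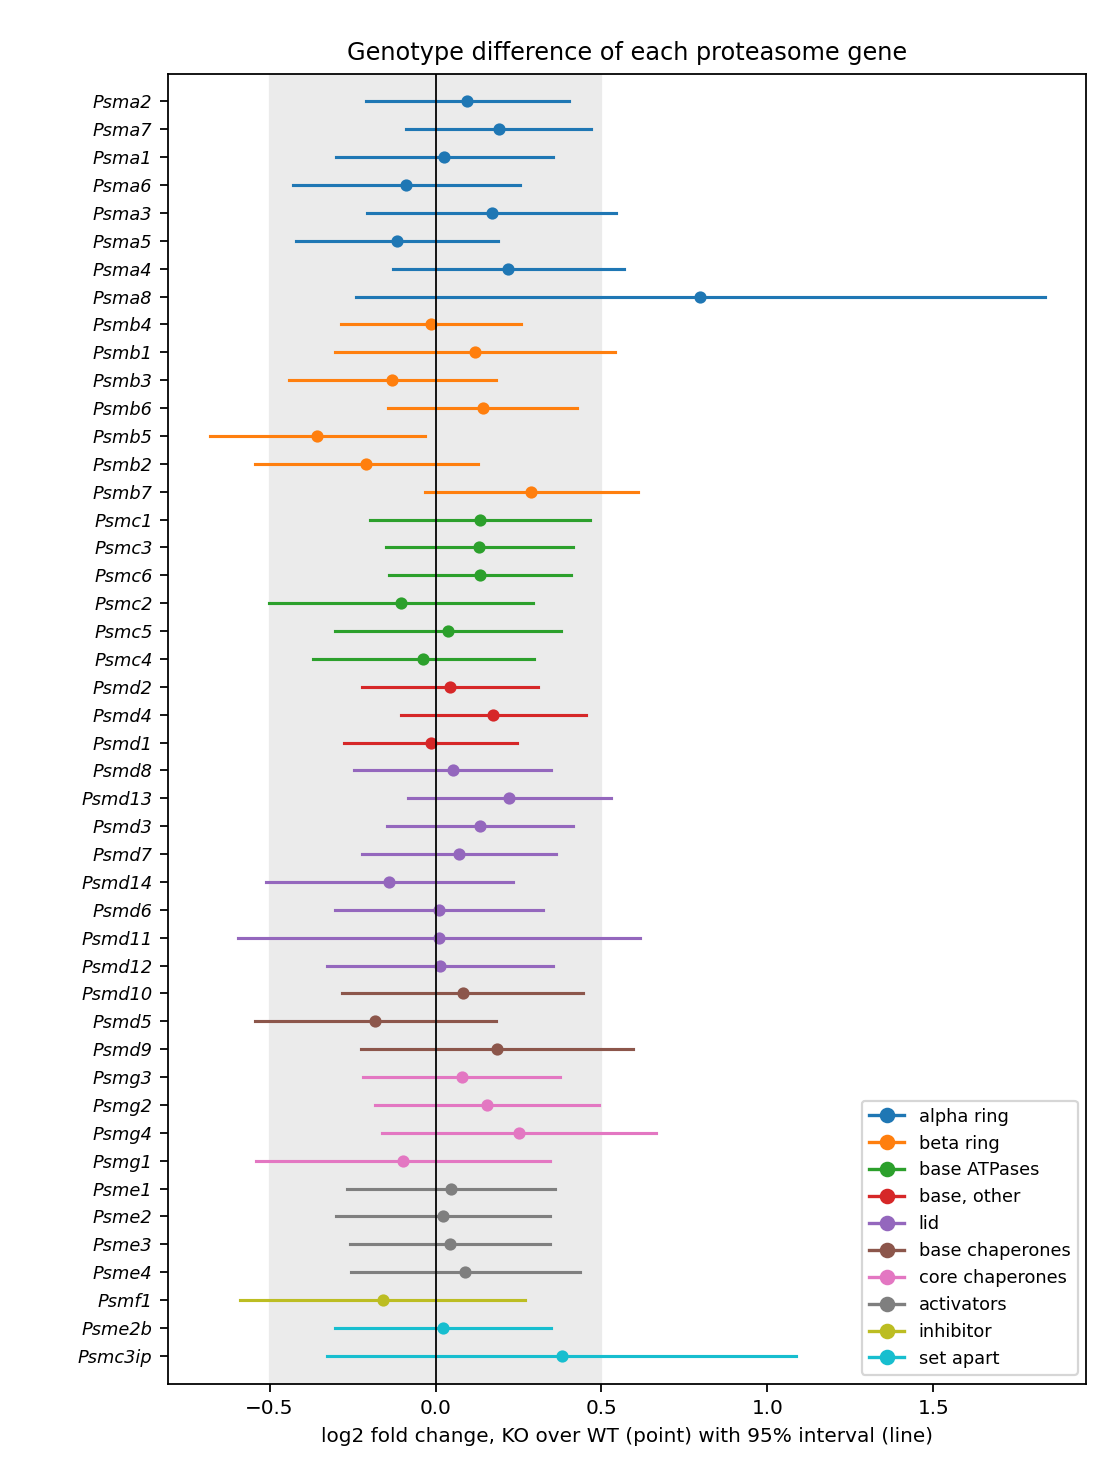
Log2 fold change of each gene (KO over WT, point) with its 95% interval from edgeR's quasi-likelihood fit (line), coloured by class, over a grey band from -0.5 to 0.5. The interval of Psmb5 alone leaves out 0, and that of Psma8, the gene with the lowest counts, is the widest.

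The catalytic genes of the beta ring had log2 fold changes of both signs. *Psmb5* encodes the chymotrypsin-like site and lies on chromosome 14 of GRCm38 from 54614119 to 54618022 on the minus strand. It stood at 115, 106 and 110.3 CPM in WT replicates 1 to 3 and at 77.9, 106, 70.3 and 90.9 CPM in KO replicates 1 to 4. KO replicates 1, 3 and 4 were below all WT mice and KO replicate 2 was level with WT replicate 2. The means were 110.2 ± 4.59 (SD, n = 3) and 86.2 ± 15.5 CPM (SD, n = 4), with a log2 fold change of -0.36 (SE 0.15, 95% interval -0.68 to -0.03, adjusted p = 0.999, edgeR) and p = 0.0857 in a two-sided exact permutation test. Its 3' stretch is 1 of those shared with a copy, *Gm3375*.

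*Psmb7*, the trypsin-like site, lies on chromosome 2 from 38588036 to 38644087 on the minus strand. It had 61.6, 56.3 and 62.4 CPM in WT and 65.9, 69.2, 82.6 and 76.2 CPM in KO mice. All KO mice were above all WT mice, with means of 60.1 ± 3.35 (SD, n = 3) and 73.5 ± 7.45 CPM (SD, n = 4). The log2 fold change of *Psmb7* was 0.29 (SE 0.15, 95% interval -0.03 to 0.61, adjusted p = 0.999, edgeR), and the two-sided exact permutation p was 0.0571, where 0.0286 is the smallest that 35 splits allow. The last exon of *Psmb7* overlaps *Nek6* on the opposite strand, and the strand that was counted is not given in the sources used here, so reads of the 2 genes may not be told apart. The same holds for the last exons of *Psmc3* (*Slc39a13*), *Psme1* (*Emc9*) and *Psmc3ip* (*Mlx*), and that of *Psme2b* overlaps *9930111J21Rik1* on the same strand. *Psmb6*, the caspase-like site, had 162, 128 and 163 CPM in WT and 159, 174, 159.6 and 175 CPM in KO mice, overlapping between genotypes (log2 fold change 0.14, 95% interval -0.14 to 0.43).

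Each constitutive catalytic subunit has an immunoproteasome partner that takes its place, and the ratio within a mouse does not depend on the scaling of the library. *Psmb9* over *Psmb6* was 2.03, 2.61 and 1.72 in WT replicates 1 to 3 and 1.57, 1.70, 1.44 and 1.21 in KO replicates 1 to 4. All KO mice were below all WT mice, with means of 2.12 ± 0.455 (SD, n = 3) and 1.48 ± 0.209 (SD, n = 4) and KO replicate 2 just under WT replicate 3. The two-sided exact permutation test gave p = 0.0286, the smallest it allows, and 0.0857 after adjustment over the 3 pairs. With each mouse left out in turn, the ratio of the KO to the WT mean lay between 0.637 and 0.790. *Psmb8* over *Psmb5* was 3.18 ± 0.317 in WT and 3.93 ± 0.645 in KO mice (two-sided exact permutation p = 0.2, adjusted 0.3), and *Psmb10* over *Psmb7* was 1.77 ± 0.249 and 1.63 ± 0.212 (p = 0.457, adjusted 0.457, exact permutation). The mean ratio was thus higher in KO mice for the first of these and lower for *Psmb9* over *Psmb6* and *Psmb10* over *Psmb7*. Of 12 interferon-stimulated genes, 5 had an unadjusted p-value under 0.05, all lower in KO cells, where 3.63% of all genes had one in either direction, and their summed level ranged from 4277 to 7310 CPM in WT and from 4347 to 4748 CPM in KO mice. Of the 10 macrophage markers 7, of the 8 eosinophil, basophil and mast cell markers 4 and of the 11 lymphoid markers 2 had such a p-value, also lower in KO cells, and 0 of the progenitor, late neutrophil, erythroid, platelet and proliferation markers did. None of these genes passed an adjusted p-value of 0.25 (edgeR). The part of any of these lists in the *Psmb9* to *Psmb6* ratio was not tested.

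**Figure D4:**
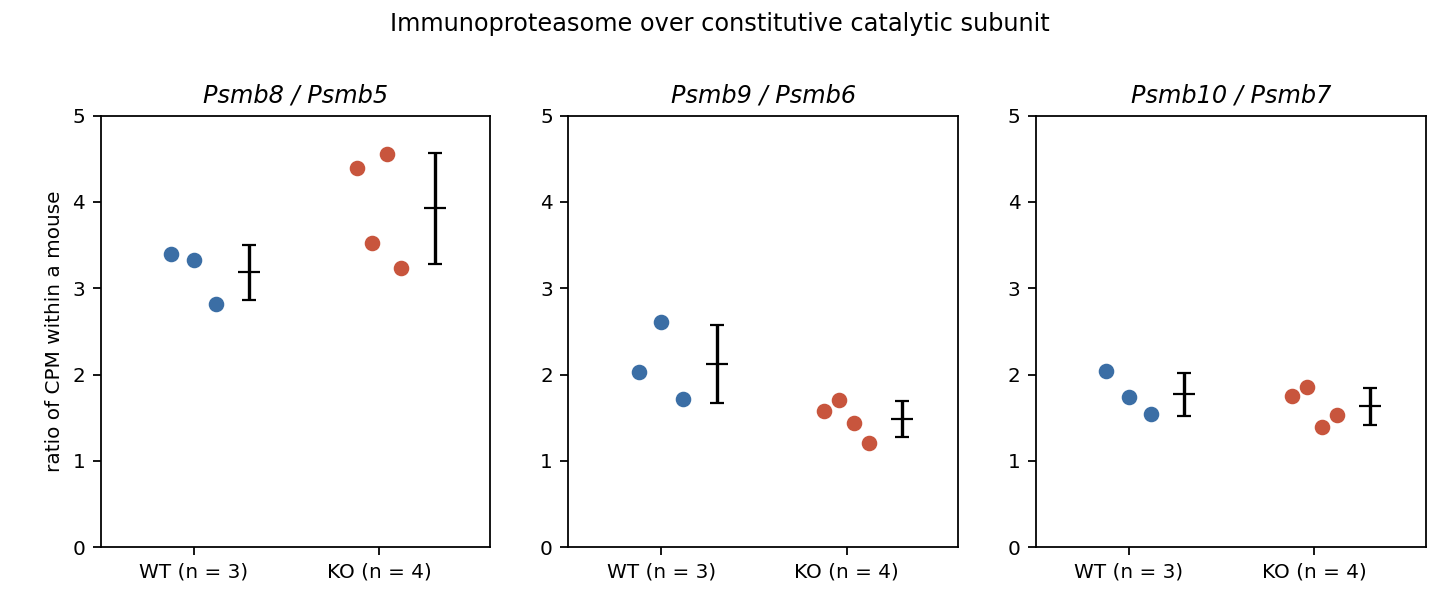
Ratio of the CPM of each immunoproteasome gene to that of the constitutive catalytic gene it replaces, by mouse (WT blue, n = 3; KO red, n = 4), with the mean and SD in black. Psmb9 over Psmb6 is the pair whose genotypes do not overlap, 2.12 on average in WT and 1.48 in KO mice.

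In the alpha ring, 6 of 8 genes had a log2 fold change above 0, with a median of 0.13, which was 0.0211 without KO replicate 2, 0.189 without WT replicate 1 and 0.0638 with the *Rn45s* share, described further on, as a covariate. *Psma8* encodes an alpha subunit that takes the place of *Psma7* in the testis and was low here, with 3.07, 3.36 and 1.86 CPM in WT and 5.83, 6.03, 3.92 and 3.49 CPM in KO mice. All KO mice were higher, KO replicate 4 by little over WT replicate 2, and the interval was wide (log2 fold change 0.80, SE 0.49, 95% interval -0.24 to 1.84, adjusted p = 0.999, edgeR). With 7 reads in WT replicate 3, it drops out when each mouse must have at least 10 reads. *Psma7* itself lay between 366 and 436 CPM in WT and between 384 and 491 in KO mice. *Psma2* had 620.0, 434 and 532 CPM in WT and 626, 609.9, 472 and 552 CPM in KO mice, with no separation. *Psma4* had 73.3, 54.0 and 55.5 CPM in WT mice, of which replicate 1 was the highest. In KO mice *Psma4* had 65.3, 83.5, 68.4 and 67.0 CPM, and replicate 2 stood apart from the other KO mice (log2 fold change 0.22, SE 0.17). The remaining alpha genes, *Psma1*, *Psma3*, *Psma5* and *Psma6*, overlapped between genotypes, and *Psma5* varied least of the ring, from 65.5 to 80.2 CPM.

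Of the beta ring, 3 of 7 genes were higher and 4 lower, with a median log2 fold change of -0.01. That median had no settled sign: single mice left out took it from -0.0815 (without WT replicate 3) to 0.0515 (without KO replicate 1), and the *Rn45s* covariate to 0.0403. *Psmb4*, a structural subunit, had 502, 530.3 and 444 CPM in WT and 424, 519, 494 and 515 CPM in KO mice (95% interval of the log2 fold change -0.28 to 0.26). *Psmb1* and *Psmb3*, also structural, had the next highest mean levels, the former spread from 264 to 487 CPM and the latter from 266 to 407 CPM over all mice. *Psmb2* lay between 72.0 and 82.0 CPM in WT and between 57.1 and 79.0 in KO mice.

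Log2 fold changes in the regulatory particle lay between -0.14 (*Psmd14*) and 0.22 (*Psmd13*). The 6 ATPases, which thread the substrate into the core, had log2 fold changes from -0.10 to 0.13. *Psmc1*, the highest of them, had 211, 265 and 194 CPM in WT and 202, 215, 301 and 264 CPM in KO mice, so that WT replicate 2 and KO replicates 3 and 4 were high and the rest low (log2 fold change 0.13, SE 0.16, with 0.0206 without KO replicate 3 and 0.275 without WT replicate 2). *Psmd2*, a scaffold of the base and a docking site for ubiquitin-like domains, was among the steadiest at 247, 257 and 241 CPM in WT and 248, 236, 287 and 253 CPM in KO mice (log2 fold change 0.04, 95% interval -0.22 to 0.31). *Psmd1*, the other scaffold, varied least of the 46 genes, with a coefficient of variation of 3.70% within genotypes, from 175 to 194 CPM over all mice. *Psmd4*, a ubiquitin receptor, lay between 183 and 194 CPM in WT and between 184 and 243 in KO mice.

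Of the 8 lid genes, 7 were higher in KO cells, with a median log2 fold change of 0.03, which was 0.0889 without KO replicate 1, 0.0164 without KO replicate 3 and 0.102 with the *Rn45s* covariate. *Psmd13* had the fourth smallest unadjusted p of the set, with 212, 265 and 198 CPM in WT and 231, 238, 306 and 276 CPM in KO mice. WT replicate 2 was above KO replicates 1 and 2, and the log2 fold change of *Psmd13* was 0.22 (SE 0.15, 95% interval -0.08 to 0.53, adjusted p = 0.999, edgeR). *Psmd8*, the highest lid gene, had 306, 368 and 304 CPM in WT and 341, 276, 394 and 339 CPM in KO mice, again without separation. *Psmd14*, which carries the deubiquitinase of the lid, was the only lid gene with a value below 0, and its mice ran from 114 to 187 CPM in WT and from 103 to 160.3 CPM in KO. *Psmd3*, *Psmd6*, *Psmd7*, *Psmd11* and *Psmd12* overlapped between genotypes.

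The activators are caps that open the core without ATP. *Psme1* and *Psme2* form the interferon-inducible PA28 ring and lie beside each other on chromosome 14, at 55578123 to 55581529 and 55587441 to 55591113. *Psme1*, whose reads may include some of *Emc9*, had 196, 203 and 149.9 CPM in WT and 174, 204, 162 and 216 CPM in KO mice. *Psme2* had 80.3, 103 and 77.9 CPM in WT and 76.2, 87.9, 92.7 and 97.2 CPM in KO mice. Neither separated the genotypes, with log2 fold changes of 0.05 (95% interval -0.27 to 0.36) and 0.02 (-0.30 to 0.34). *Psme3*, the nuclear form, had 87.3, 76.2 and 86.6 CPM in WT and 96.6, 79.6, 85.6 and 82.0 CPM in KO mice. *Psme4*, which encodes PA200, had 69.3, 54.3 and 56.3 CPM in WT and 74.4, 65.7, 58.7 and 56.8 CPM in KO mice. All 4 log2 fold changes were between 0.02 and 0.09. The copy *Psme2b* was listed at 62.5, 62.2 and 72.8 CPM in WT and 61.0, 67.5, 76.6 and 62.0 CPM in KO mice, and its reads cannot be fully told from those of *Psme2* or of *9930111J21Rik1*. *Psmf1*, an inhibitor of the core, had 28.5, 23.5 and 31.4 CPM in WT and 26.8, 25.1, 21.1 and 26.7 CPM in KO mice (log2 fold change -0.16, SE 0.20).

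The assembly factors within the set reached at most about the middle of its range of levels. The 4 genes *Psmg1* to *Psmg4*, whose products pair up to build the alpha ring, had mean levels from 33.6 to 107 CPM. *Psmg3*, the highest, had 95.2, 111 and 105 CPM in WT and 99.5, 106, 126 and 106 CPM in KO mice. The 3 base chaperones *Psmd5*, *Psmd9* and *Psmd10* had mean levels from 41.6 to 56.5 CPM. *Psmd10*, known as gankyrin, had 57.3, 54.3 and 52.6 CPM in WT and 74.6, 51.5, 52.1 and 53.3 CPM in KO mice, so that KO replicate 1 stood alone and the other KO mice lay within or below the WT range. The recombination gene *Psmc3ip* was low, between 7.24 and 10.6 CPM in WT and between 7.47 and 18.2 CPM in KO mice.

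The genes lie on 16 chromosomes, and what they share may be looked for in their promoters. Windows of 300 bases, from 250 before to 50 after a RefSeq transcript start on GRCm38.p6, were held for 38 of the 46 genes, and were searched on both strands for a few short motifs, whose matches can overlap each other. The antioxidant response core TGACNNNGC, to which the proteasome regulator Nfe2l1 and its relative Nfe2l2 bind with small Maf proteins, was present for 6 of 38 genes (15.8%) against 14.0% of 27025 genes. The CCAAT box, bound by NF-Y, was present for 13 (34.2%) against 41.1%. A pair of interferon response half-sites, GAAANNGAAA, was present for 5 (13.2%) against 3.99%. The ETS motif CCGGAAGT was present for 9 (23.7%) against 4.31%. A match is a run of letters and not evidence of binding. The 27025 genes are all those with a window, whether or not they were tested in these cells. No comparison with genes of like level was made. Stretches of the windows of the catalytic genes *Psmb5* and *Psmb6*, whose levels are given above, and of the base chaperone *Psmd9* are shown with the antioxidant response core in capitals, at chr14:54618009-54618067 (minus strand), chr11:70525323-70525356 (plus strand) and chr5:123228134-123228189 (plus strand). Stretches of the windows of the base ATPase *Psmc1*, the lid gene *Psmd6* and the activator *Psme4* are shown with the ETS motif or its reverse complement in capitals, at chr12:100110148-100110201 (plus strand), chr14:14120958-14121015 (minus strand) and chr11:30771697-30771754 (plus strand), as instances of the motif with the widest gap between the set and all genes among the 4 searched.
Psmb5: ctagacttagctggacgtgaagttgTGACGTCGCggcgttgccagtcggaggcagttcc
Psmb6: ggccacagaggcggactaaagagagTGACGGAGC
Psmd9: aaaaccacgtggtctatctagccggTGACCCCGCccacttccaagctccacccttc
Psmc1: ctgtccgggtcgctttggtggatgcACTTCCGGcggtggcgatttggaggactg
Psmd6: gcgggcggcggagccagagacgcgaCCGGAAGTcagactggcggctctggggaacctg
Psme4: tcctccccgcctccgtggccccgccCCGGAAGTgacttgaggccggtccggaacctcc

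No gene listed as acting with the proteasome was called. Of 41 such genes in 5 groups, 35 were tested and 0 passed an adjusted p-value of 0.25 (edgeR), with 24 higher and 11 lower in KO cells (49.8% of all genes were higher) and a median log2 fold change of 0.04. Of the 35, 2 had an unadjusted p-value under 0.05, 1 higher and 1 lower, beside 3.63% of all genes. Among transcriptional regulators of the proteasome (8 tested) the smallest p-values were those of *Nfe2l2*, at 52.6 ± 2.21 CPM in WT and 62.7 ± 10.2 in KO cells, and of *Ngly1*, the enzyme that processes Nfe2l1, at 18.7 ± 5.46 and 14.9 ± 3.76 CPM. *Nfe2l1* itself had 53.9 ± 14.2 and 54.6 ± 7.47 CPM. Of 9 further subunit, assembly and shuttling genes, 7 were higher, led by *Rad23b*, a ubiquitin shuttle, at 268 ± 4.18 and 311 ± 41.7 CPM, and *Pomp*, the maturation factor of the core, at 507 ± 19.2 and 567 ± 61.0 CPM. Of 7 bound deubiquitinases, ligases and cofactors, 3 were higher and 4 lower, with *Txnl1* at 129 ± 15.8 and 108 ± 5.63 CPM and *Zfand5* at 114 ± 28.0 and 141 ± 22.2 CPM. The unfoldase gene *Vcp* was level at 476 ± 41.7 and 476 ± 39.6 CPM, and its cofactors *Faf1* (24.7 ± 3.98 and 29.9 ± 3.49 CPM) and *Faf2* (31.5 ± 10.9 and 37.9 ± 7.21 CPM) had the smallest p-values of that group.

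Of the ubiquitin-activating enzymes, *Uba6* stood at 24.0 ± 1.53 CPM in WT (SD, n = 3) and 16.7 ± 3.16 in KO cells (SD, n = 4), a log2 fold change of -0.52 (SE 0.23, adjusted p = 0.999, edgeR), with no overlap between genotypes. The other activating enzyme, *Uba1*, was level at 236 ± 22.2 and 241 ± 15.7 CPM. Among the immunoproteasome genes, *Psmb9* had 315 ± 30.7 and 247 ± 36.0 CPM (log2 fold change -0.35, SE 0.14, adjusted p = 0.999, edgeR), *Psmb8* 351 ± 39.6 and 332 ± 33.2 CPM and *Psmb10* 107 ± 16.5 and 119 ± 6.40 CPM.

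For some subunits the mice of a genotype spread widely, and this spread was set against the *Rn45s* share, which was 11.8%, 20.6% and 9.43% in WT replicates 1 to 3 and 4.94%, 9.21%, 13.6% and 18.6% in KO replicates 1 to 4. The following fit was chosen after the data had been seen, as were the genes it names. With genotype and the log2 of that share in 1 edgeR quasi-likelihood fit over all genes, 4 of the 46 genes had a slope above 0 with an adjusted p-value under 0.25, which is 8.70% of the set against 1.83% of all genes. None had such a slope below 0, against 1.62% of all genes. None of the 4 passed 0.05. At an unadjusted p-value under 0.05, the set had 8 slopes, while 12.1% of all genes had one. Slopes were above 0 for 28 genes and below 0 for 18, so the set did not move as 1 block.

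*Psmd11*, a lid gene known to limit proteasome assembly in embryonic stem cells, lies on chromosome 11 from 80428615 to 80473248 on the plus strand. It had 59.7, 101 and 60.6 CPM in WT and 42.6, 68.2, 98.5 and 87.7 CPM in KO mice. WT replicate 2 and KO replicates 3 and 4, the mice with the larger *Rn45s* shares, were high, and KO replicate 1, with the smallest, was low. The log2 level of *Psmd11* rose by 0.64 per doubling of the share (SE 0.12, adjusted p = 0.0878, edgeR), while its genotypes were level at 73.8 ± 23.6 (SD, n = 3) and 74.2 ± 24.6 CPM (SD, n = 4). The correlation of log2 values over the 7 mice was r = 0.909 (permutation p = 0.00556, adjusted 0.155 over 46 genes) and rho = 0.821 (permutation p = 0.0341, adjusted 0.336), and r was 0.703 without WT replicate 2 and KO replicate 1. Slopes were 0.36 for *Psmb1* (SE 0.12, adjusted p = 0.231, edgeR), 0.30 for *Psmc1* (SE 0.10, adjusted p = 0.231, edgeR) and 0.30 for *Psma6* (SE 0.10, adjusted p = 0.241, edgeR). Their r were 0.623, 0.724 and 0.853 and their rho 0.571, 0.714 and 0.893, with adjusted permutation p-values of 0.402, 0.327 and 0.192 for r and 0.418, 0.336 and 0.189 for rho. Without the same 2 mice, r was 0.691, 0.731 and 0.876. By correlation the activator *Psme2*, whose slope of 0.23 (SE 0.10, adjusted p = 0.384, edgeR) did not pass, had r = 0.866 (permutation p = 0.0101, adjusted 0.155) and rho = 0.893 (permutation p = 0.0123, adjusted 0.189), with r = 0.752 without those mice. The core assembly chaperone *Psmg4*, whose slope did not pass either, ran the other way, with 51.3, 34.7 and 51.5 CPM in WT and 67.0, 59.8, 44.1 and 47.6 CPM in KO mice. Its slope was -0.36 (SE 0.13, adjusted p = 0.274, edgeR), its r was -0.893 (permutation p = 0.00913, adjusted 0.155) and its rho -0.964 (permutation p = 0.00278, adjusted 0.128, the smallest adjusted value for rho of the 46 genes), and r was -0.709 without those 2 mice. Adjusted permutation p-values for r were also under 0.25 for *Psmb4* (r = 0.816, 0.192), *Psme3* (r = -0.798, 0.218) and *Psme4* (r = -0.785, 0.218). The slopes of *Psmb4*, *Psme3* and *Psme4* did not pass, and their r were 0.421, -0.0479 and -0.356 without those 2 mice. Without WT replicate 1, 2 or 3, or KO replicate 2 or 3, 1 gene and not 4 passed 0.25, and in each of those fits *Psmd11* had an adjusted p-value under 0.25, up to 0.225 (edgeR). The slopes stayed above 0 with each mouse left out, from 0.576 to 0.781 for *Psmd11*, from 0.236 (without WT replicate 2) to 0.595 (without KO replicate 1) for *Psmb1*, from 0.257 to 0.382 for *Psmc1* and from 0.226 (without WT replicate 2) to 0.461 (without KO replicate 1) for *Psma6*. With 3 and 4 mice, no correlation was computed within a genotype, though the slopes are adjusted for it, and what sets the *Rn45s* share, and its part in these levels, was not tested.

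**Figure D5:**
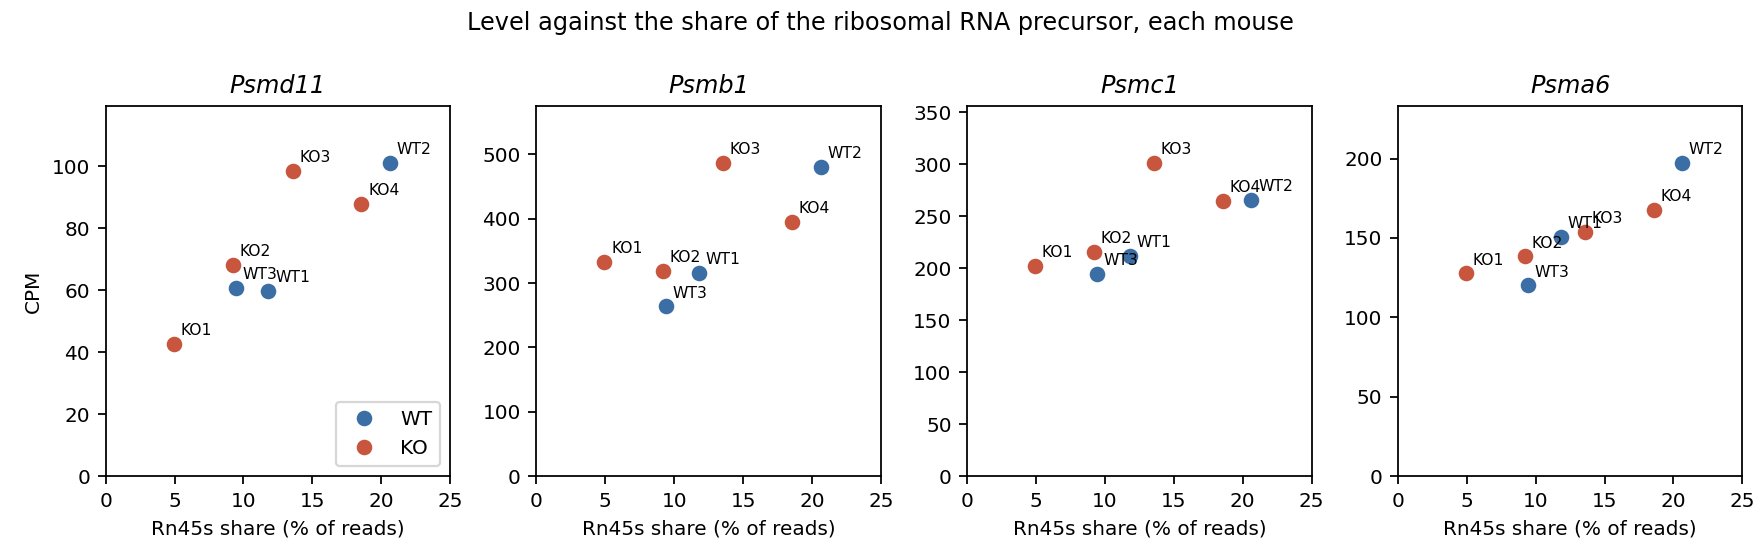
CPM of Psmd11, Psmb1, Psmc1 and Psma6 in each mouse against the share of reads on genes taken by Rn45s in percent, with WT mice in blue and KO mice in red, labelled by replicate. Psmd11 runs from 42.6 CPM in the mouse with the smallest share (4.94%) to 101 CPM in the mouse with the largest (20.6%), and mice of both genotypes lie along the rise.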

How the data were processed

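The authors deposited, per mouse, unnormalized read counts on 25033 gene symbols. Per the methods and the submitters' processing notes, reads were aligned to GRCm38 with STAR. The strand counted is not given in the sources used here. Tally rows were left out. The depth is given with the first results.

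From these counts, edgeR 4.0.16 (R 4.3.3) gave TMM factors, filterByExpr, CPM and robust quasi-likelihood tests over 11265 genes without a replicate block. Log2 fold changes are KO over WT, with SE taken as size over the root of F. Single values and ratios were compared by two-sided exact permutation over 35 splits, on log2(CPM + 1) and log2(ratio + 1). Alternatives included DESeq2 1.42.0 and limma 3.58.1. The tests were checked on simulated counts.

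Members, classes and lists were chosen with earlier results of these data known. Values per mouse are given for the 4 smallest p-values, any gene past 0.25, the highest gene of each class, the catalytic and *Psme* genes, genes under 5 CPM and genes with an outlying KO mouse. Of each further group, the 2 genes of smallest p were named, except that 1 gene is not reported here; *Nfe2l1*, *Vcp*, *Uba1*, *Psmb8* and the genes of the *Rn45s* fit were added after their values were seen. Positions are from GENCODE M21. Within each genotype, no pair of libraries was alike within sampling noise.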

Additional observations from a re-analysis of the deposited data

Results flagged for a closer look

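In 4 of 56 levels examined among the 4 KO mice (each gene, and the summed level of each group), 1 mouse lay far from the other 3 for the size of the group, where chance alone would mark about 1 in 20, or 2.8. *Psma4* was at 83.5 CPM in KO replicate 2, against 65.3 to 68.4 CPM in the other KO mice. *Psmd10* was at 74.6 CPM in KO replicate 1, against 51.5 to 53.3 CPM. The summed alpha ring was at 1765 CPM in KO replicate 2, against 1516 to 1555 CPM. The summed *Psmd1*, *Psmd2* and *Psmd4* were at 717 CPM in KO replicate 3, against 625 to 636 CPM. The WT group, with 3 mice, was not examined in this way.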

How the results depend on the processing

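With DESeq2, limma-voom, other scaling factors, other filters, the replicate block, each mouse left out and the *Rn45s* share as a covariate (the last chosen after seeing the data), 0 of the 46 genes passed 0.25 under any of 18 alternatives, and the smallest adjusted p of a named gene was 0.949. Of 322 alternative values for 19 named genes, 299 kept their direction and 23 turned it. The count of genes with an unadjusted p under 0.05 was 0 with library totals only and 2 with the covariate. Without single mice it lay between 0 and 3 (0 without WT replicate 1, WT replicate 3 or KO replicate 3, and 3 without WT replicate 2). The count of genes without overlap was 4 with library totals only, 1 where each mouse needed 10 reads (*Psma8* was left out), 7, 8 and 4 without WT replicates 1 to 3, and 5, 3, 5 and 4 without KO replicates 1 to 4, since fewer mice overlap less. The median log2 fold change of the set was 0.0805 with the covariate and between 0.0438 and 0.0771 without single mice. With the covariate, *Psmd10* (-0.00247), *Psmb4* (0.0403) and *Psme3* (-0.00134) turned. Without single mice, the log2 fold change ranged from -0.0815 to 0.0515 for *Psmb4*, -0.0779 to 0.126 for *Psme1*, -0.0517 to 0.162 for *Psme2*, -0.0509 to 0.101 for *Psme2b*, -0.0160 to 0.0861 for *Psme3*, -0.0272 to 0.234 for *Psma2*, -0.0627 to 0.134 for *Psmd10*, -0.0150 to 0.0814 for *Psmd2* and -0.0323 to 0.148 for *Psmd8*. Those that kept their sign ranged from -0.469 to -0.269 for *Psmb5*, 0.227 to 0.341 for *Psmb7*, 0.585 to 0.95 for *Psma8*, 0.138 to 0.357 for *Psmd13*, 0.0206 to 0.275 for *Psmc1*, 0.0389 to 0.204 for *Psmb6*, 0.132 to 0.382 for *Psma4*, 0.0104 to 0.216 for *Psme4*, 0.00268 to 0.132 for *Psmg3* and -0.263 to -0.0656 for *Psmf1*. Medians of the smaller classes turned sign without KO replicate 1 (base chaperones, -0.0627, and -0.00247 with the covariate), KO replicate 3 (*Psmd1*, *Psmd2* and *Psmd4*, -0.0150) and WT replicate 3 (activators, -0.00284). The causes were not tested.

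Same-numbered mice are different animals, and the methods name no pairing. Their deviations correlated at -0.0227, -0.172 and -0.132 over all genes tested, and at 0.351, -0.562 and -0.419 over the set. So few pairs cannot show whether same-numbered mice were handled together. With the replicate block, 0 genes had an unadjusted p under 0.05, and *Psme1* (-0.0175) and *Psme2* (-0.0196) turned.

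The count of genes with an *Rn45s* slope past 0.25 lay between 1 and 5 without single mice (1 without WT replicates 1, 2 or 3 or KO replicates 2 or 3), was 3 with *Rn45s* left out and 5 with the share in percent.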
